A study of Mus musculus with 12 samples.

Results

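Chemokines and their receptors were followed through the day in mouse dorsal root ganglia (DRG), which hold the cell bodies of sensory neurons that serve the skin, muscles and viscera. Members were taken by name: protein-coding genes whose mouse symbol starts with Ccl, Cxcl, Ccr, Cxcr or Ackr and a digit, together with Cx3cl1. This rule gave 64 gene IDs under 59 symbols, out of 38594 Ensembl gene IDs in the table. Cxcl11 and a pair of Ccl19 pseudogenes matched by name, are not annotated as protein-coding and were left out. Lumbar ganglia (L1 to L6) came from male C57BL6J mice of 6 to 12 weeks, taken at zeitgeber time (ZT) 2, 8, 14 or 20, which is the hour after lights on. There were 4 groups of 3 libraries, 12 in all, and the time is what their labels set apart. The animals carried no allele or treatment named in the labels, whose titles call them naive. The study's title concerns the clock of nociceptors, which are sensory neurons tuned to harmful stimuli, and the comparison here asks which chemokine system genes differ between the 4 times.

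Chemokines are small secreted proteins that attract cells along a gradient. They bind receptors with a membrane-spanning bundle of helices that signal through inhibitory G proteins, and atypical receptors bind chemokines without that signal and remove or carry them. Homeostatic chemokines are made in resting tissue, whereas inflammatory ones are switched on by cytokines such as interferon-gamma and tumour necrosis factor. In ganglia, neurons, satellite glia, macrophages and vessel cells can all make chemokines, and chemokine receptors on sensory neurons are studied for their effect on excitability and pain.

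Cxcl9 had the widest spread between libraries of the same time of the 45 members at 0.2 CPM or more, and its neighbour Cxcl10 that of the 10 members at 5 CPM or more, so the 250 bases before each start are shown. Both encode ligands of the receptor Cxcr3 and are known targets of interferon signalling. The bases are on the minus strand at chr5:92328080-92328329 for Cxcl9 and chr5:92348890-92349139 for Cxcl10 (GRCm38.p6, from RefSeq), 5′ to 3′, with matches to either of 2 motifs in capitals.
Cxcl9: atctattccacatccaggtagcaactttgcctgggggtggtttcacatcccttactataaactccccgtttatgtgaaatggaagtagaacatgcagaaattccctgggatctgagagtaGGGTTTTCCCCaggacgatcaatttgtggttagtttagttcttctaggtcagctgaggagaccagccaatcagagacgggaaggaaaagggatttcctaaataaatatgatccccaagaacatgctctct
Cxcl10: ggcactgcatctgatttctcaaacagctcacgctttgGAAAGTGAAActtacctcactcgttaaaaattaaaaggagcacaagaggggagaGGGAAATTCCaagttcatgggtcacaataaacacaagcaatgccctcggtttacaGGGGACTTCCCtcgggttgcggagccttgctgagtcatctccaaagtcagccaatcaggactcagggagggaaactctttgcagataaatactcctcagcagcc
The motifs were the core of the interferon-stimulated response element (TTTC and TTTC with any 2 bases between them) and a motif like those bound by NF-kB (GGG and CC with any 5 bases between them), searched on both strands. The Cxcl10 window held the response element core in its reverse complement, between 213 and 204 bases before the start, and NF-kB-like matches at 2 places. The Cxcl9 window held no match to the response element core and NF-kB-like matches that run into each other 130 to 120 bases before the start. Among 32851 windows of 250 bases before gene starts, 2.98% held the response element core, 45.8% the NF-kB-like motif and 6.02% the E-box bound by clock activators (CACGTG). For the 43 of 59 member symbols found in the RefSeq table, 50 windows held the response element core in 3 (Ccl19, Cxcl10 and Cxcl14), the NF-kB-like motif in 27 and the E-box in 1 (Cxcl3). A match of letters is a description of the window and not evidence that a factor binds there.

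The deposited estimated counts of a library summed to between 89623413 and 124730176. They follow coverage per base, so CPM (the TMM-scaled value per 1000000 of the library total) is a level per length and can be compared between genes. Turned back with transcript lengths, the libraries held roughly 23968402 to 33531950 read pairs. All 8 markers of sensory neurons were found in every library, with summed levels of 15529 to 16576 CPM, as were the 5 of satellite glia and the 5 of myelinating Schwann cells. Markers of skeletal muscle, which borders the ganglia, ranged from 19.3 to 731 CPM in sum and were highest in ZT14 replicate 1, ZT20 replicate 1, ZT8 replicate 3 and ZT2 replicate 2. Nothing in the labels ties a library to its own animals, so p-values measure how far these libraries differ, in part perhaps for technical reasons. Libraries were numbered in the order of the times, so a batch of collection cannot be told apart from the time. In bulk tissue, fewer cells of a type and less RNA per cell cannot be told apart.

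Most of the family was present at low levels. Of the 64 gene IDs, 45 had a mean of at least 0.2 CPM over the 12 libraries, and 49 had a value above 0 in all of them. Only 10 averaged 5 CPM or more, 20 lay between 1 and 5 CPM and 15 between 0.2 and 1 CPM. The members summed to 160.4 to 221.1 CPM in a library, and Ccl27a, Cxcr4, Ccl11 and Cxcl12 made up 49.4% of the summed mean. Just inside the minimum lay Cxcr2 (0.202 CPM) and Ackr2 (0.223 CPM), and just outside it Ccr7 (0.171 CPM) and Cxcr6 (0.158 CPM). The 19 members under 0.2 CPM were the receptors Ccr3, Ccr4, Ccr6, Ccr7, Ccr8, Ccr9, Ccr1l1, Cxcr1, Cxcr5 and Cxcr6 and the ligands Ccl4, Ccl20, Ccl26, Cxcl2, Cxcl3, Cxcl5, Cxcl13, Cxcl15 and Cxcl17.

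**Figure D1:**
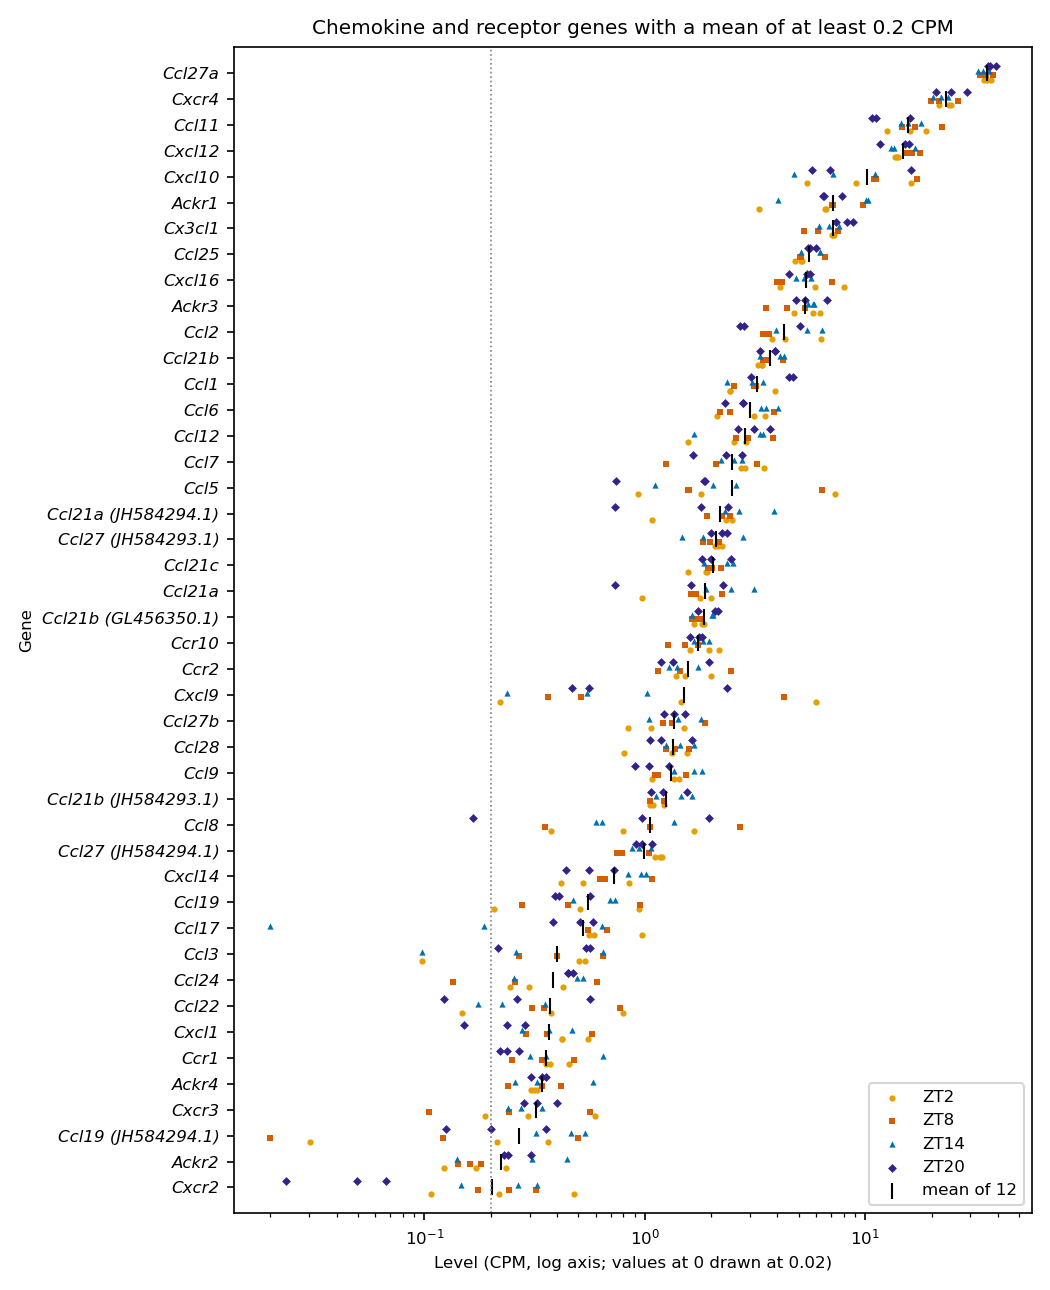
Level of 44 of the 45 genes with a mean of at least 0.2 CPM (log axis) in the 12 libraries, coloured by zeitgeber time, with a bar at the mean of 12 and a dotted line at 0.2 CPM. Ccl27a leads with 35.8 CPM, and Cxcl9, Ccl5 and Ccl8 spread widely, while Cxcr2 is lowest in the 3 ZT20 libraries.

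Homeostatic and tissue ligands held the largest summed mean, 89.0 CPM over 20 gene IDs, of which 18 passed 0.2 CPM. Ccl27a, a ligand of Ccr10 best known from skin, was the most abundant member with a mean of 35.8 CPM. Its libraries read 34.5, 37.3 and 35.9 CPM at ZT2, 33.1, 35.2 and 38.0 at ZT8, 36.6, 32.6 and 34.3 at ZT14, and 36.7, 36.0 and 39.1 at ZT20. All 4 groups overlapped, and the amplitude of a 24-h cosine, the log2 distance from mean to peak, was 0.05 ± 0.03 (SE). Ccr10, the receptor it shares with Ccl28, averaged 1.74 CPM, with libraries between 1.27 and 2.17 CPM. Ccl28, a mucosal chemokine, averaged 1.34 CPM (0.802 to 1.68).

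Ccl25, a ligand of Ccr9, read 5.16, 4.79 and 5.09 CPM at ZT2, 5.05, 5.11 and 6.55 at ZT8, 6.22, 5.13 and 6.25 at ZT14, and 5.52, 5.64 and 5.99 at ZT20. Each ZT20 value was above each ZT2 value, and the other times overlapped with both. Its receptor Ccr9 was among the genes under 0.2 CPM, with a mean of 0.0631 CPM. Cxcl16, a membrane-anchored ligand of Cxcr6, read 5.91, 8.01 and 4.12 CPM at ZT2, 4.18, 3.96 and 7.04 at ZT8, 5.28, 5.69 and 4.86 at ZT14, and 4.51, 5.61 and 5.44 at ZT20. ZT2 replicate 2 and ZT8 replicate 3 were the highest, and all groups overlapped. Cxcl14, a ligand made by epithelia and glia, averaged 0.724 CPM (0.418 to 1.08).

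The lymphoid chemokines Ccl19 and Ccl21, ligands of Ccr7, were spread over near-identical copies. Ccl21b on chromosome 4 read 3.39, 3.42 and 3.26 CPM at ZT2, 3.43, 3.61 and 4.26 at ZT8, 4.28, 4.10 and 3.32 at ZT14, and 3.90, 3.89 and 3.33 at ZT20. The ZT8 values all lay above those of ZT2, and the other groups overlapped with them. Ccl21a averaged 1.87 CPM, Ccl21c 2.05 CPM, Ccl27b 1.35 CPM and Ccl19 0.551 CPM. In all, 7 gene IDs lie on unplaced scaffolds (GL456350.1, JH584293.1 and JH584294.1), 6 of them further copies of Ccl19, Ccl21a, Ccl21b or Ccl27 and the other Ccl21c, with means of 0.269 to 2.19 CPM. Reads of such copies can be split between them in ways the table does not show, so their single levels are uncertain.

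Cxcl12, which holds stem cells and leukocytes in their niches and guides neurons in development, is read by the signalling receptor Cxcr4 and removed by the atypical receptor Ackr3, and all 3 were among the 10 most abundant members. Cxcl12 read 14.0, 14.1 and 13.7 CPM at ZT2, 16.3, 15.5 and 17.7 at ZT8, 16.8, 13.5 and 13.2 at ZT14, and 15.8, 15.1 and 11.6 at ZT20. All ZT8 libraries lay above those of ZT2, while ZT14 and ZT20 overlapped both. The contrast of ZT8 against ZT2 was 0.24 ± 0.12 (SE) on the log2 scale, with an adjusted p of 0.879 in the quasi-likelihood test of edgeR. Cxcr4 read 24.03, 21.6 and 24.4 CPM at ZT2, 19.9, 21.7 and 26.3 at ZT8, 23.7, 20.4 and 22.0 at ZT14, and 29.0, 20.9 and 24.6 at ZT20. Its groups overlapped, and its 24-h amplitude was 0.08 ± 0.06. Ackr3 read 5.77, 6.23 and 4.75 CPM at ZT2, 4.42, 3.55 and 5.35 at ZT8, 5.87, 5.49 and 5.78 at ZT14, and 6.71, 4.87 and 5.31 at ZT20. The ZT8 libraries of Ackr3 lay under all of those of ZT14 and overlapped with the other times. ZT14 against ZT8 gave 0.36 ± 0.16 (log2, SE), at an unadjusted p of 0.0438 and an adjusted p of 0.781 in edgeR, and it was 0.23 without ZT8 replicate 2.

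**Figure D2:**
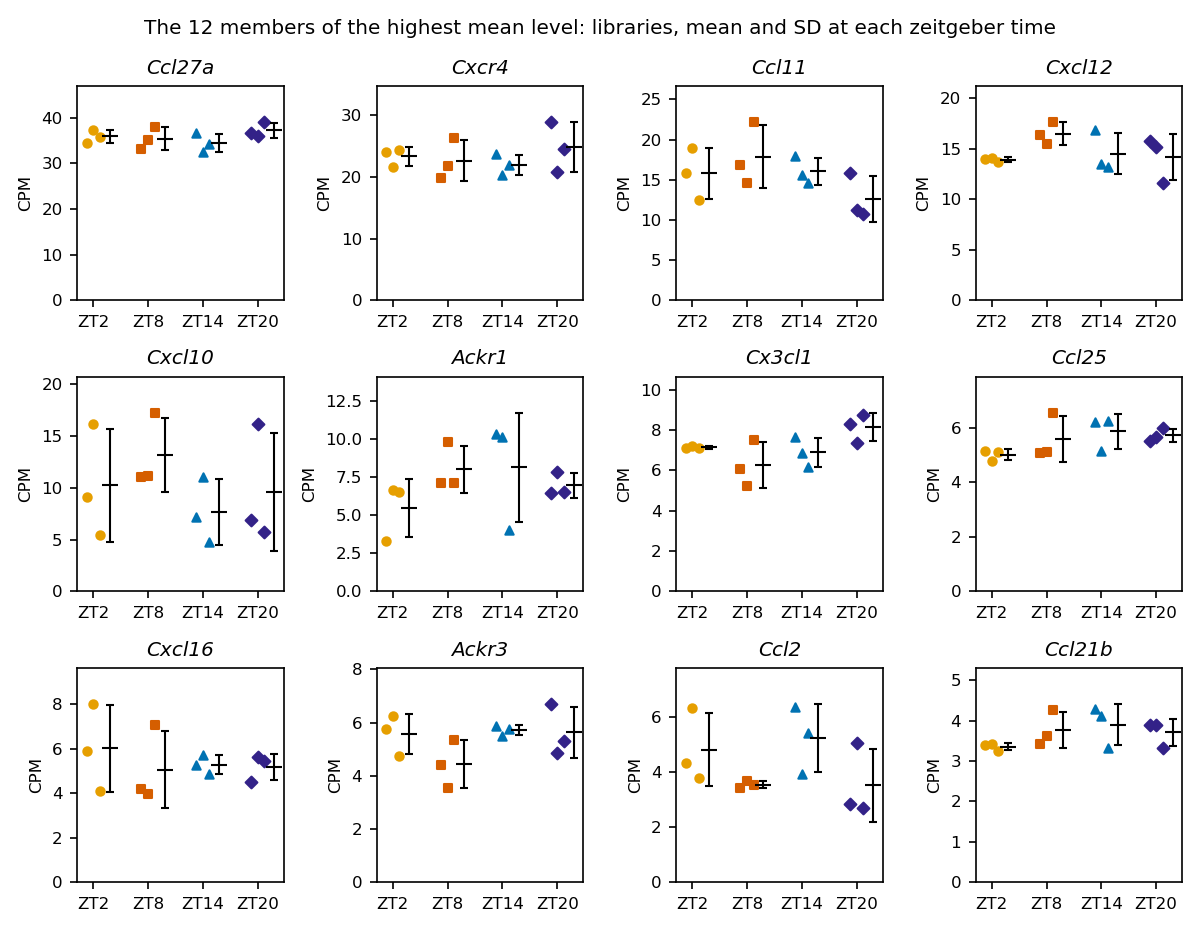
Level (CPM, axes from 0) of the 12 genes of the highest mean in each library by zeitgeber time, with the mean and SD of the 3 libraries beside the points. Ccl27a stays between 32.6 and 39.1 CPM, whereas Cxcl10 runs from 4.74 to 17.2 CPM with the spread inside each time as large as that between times.

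Cx3cl1, the membrane-bound fractalkine of neurons, read 7.14, 7.21 and 7.09 CPM at ZT2, 6.08, 5.25 and 7.49 at ZT8, 7.64, 6.88 and 6.19 at ZT14, and 8.31, 7.38 and 8.77 at ZT20. The ZT20 libraries lay above those of ZT2, and 1 ZT8 library and 1 ZT14 library reached into their range. Against ZT8, ZT20 was 0.38 higher (log2, SE 0.12, 95% interval 0.11 to 0.65), with an unadjusted p of 0.0106 and an adjusted p of 0.852 in edgeR. Its 24-h amplitude was 0.19 ± 0.06 with a fitted peak at 20.5 h (unadjusted p 0.0316, adjusted p 0.879 in edgeR). The receptor Cx3cr1 of macrophages and microglia, outside the naming rule, averaged 2.38 CPM (1.59 to 3.19). The proteases Adam10 and Adam17, which cut fractalkine free, averaged 55.9 and 11.8 CPM.

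Inflammatory CC ligands summed to a mean of 38.2 CPM over 16 gene IDs, 13 of them at 0.2 CPM or more. On chromosome 11, Ccl2, Ccl7, Ccl11, Ccl12, Ccl8 and Ccl1 lie in 270.1 kb (82035571 to 82305690, GRCm38), and all 6 passed 0.2 CPM. Ccl11, or eotaxin, a ligand of Ccr3 that draws eosinophils, read 15.9, 18.9 and 12.5 CPM at ZT2, 16.8, 14.7 and 22.2 at ZT8, 17.9, 15.6 and 14.6 at ZT14, and 15.9, 11.2 and 10.7 at ZT20. Replicates 2 and 3 of ZT20 were the lowest of all 12 libraries, and replicate 1 lay inside the range of the other times. ZT20 against ZT8 was -0.51 ± 0.20 (log2, SE), with an unadjusted p of 0.0259 and an adjusted p of 0.935 in edgeR, and it was -0.32 without ZT8 replicate 3. Its receptor Ccr3 averaged 0.0234 CPM.

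Ccl2, the main monocyte attractant and a ligand of Ccr2, read 4.34, 6.32 and 3.79 CPM at ZT2, 3.44, 3.67 and 3.54 at ZT8, 6.39, 3.93 and 5.43 at ZT14, and 2.83, 5.07 and 2.70 at ZT20. The ZT8 values lay under those of ZT2 and ZT14, and ZT20 spanned both sides of them. Ccr2, found on inflammatory monocytes, read 1.52, 2.00 and 1.39 CPM at ZT2, 1.15, 1.44 and 2.47 at ZT8, 1.39, 1.75 and 1.29 at ZT14, and 1.96, 1.19 and 1.34 at ZT20. Its groups overlapped, and ZT8 replicate 3 was the highest. Ccl7 and Ccl12, also ligands of Ccr2, averaged 2.49 and 2.85 CPM, and Ccl1, a ligand of Ccr8, averaged 3.22 CPM with its highest values in ZT20 replicates 1 and 3 (4.69 and 4.50 CPM).

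Another group on chromosome 11, from 83525778 to 83664683, held Ccl5, Ccl9, Ccl6, Ccl3 and Ccl4. Ccl6 and Ccl9, made by myeloid cells of mice, averaged 3.01 and 1.31 CPM. Ccl9 gave -0.59 ± 0.20 (log2, SE) for ZT20 against ZT14, at an unadjusted p of 0.0119 and an adjusted p of 0.695 in edgeR. Ccl3, a ligand of Ccr1, averaged 0.398 CPM. The Ccr4 ligands Ccl17 (0.526 CPM) and Ccl22 (0.370 CPM) flank Cx3cl1 on chromosome 8, and Ccl24, a further eotaxin, averaged 0.384 CPM. These last levels rest on few reads: Ccl17 on about 0 to 10 read pairs a library, Ccl3 on 2 to 10 and Ccl24 on 2 to 12.

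Cxcl9 and Cxcl10, whose start regions are printed above, lie 18.558 kb apart on chromosome 5 (92321347 to 92348889), and their values differed between libraries of the same time more than between times. Cxcl10 read 9.11, 16.2 and 5.47 CPM at ZT2, 11.0, 11.1 and 17.2 at ZT8, 7.14, 11.1 and 4.74 at ZT14, and 6.91, 16.2 and 5.73 at ZT20. Cxcl9 read 1.47, 5.99 and 0.221 CPM at ZT2, 0.513, 0.362 and 4.27 at ZT8, 1.02, 0.545 and 0.236 at ZT14, and 0.558, 2.37 and 0.469 at ZT20. For both genes ZT8 replicate 3, ZT2 replicate 2 and ZT20 replicate 2 were the 3 highest libraries. From the lowest to the highest library, Cxcl9 spanned 27.1-fold and Cxcl10 3.64-fold.

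Ccl5 and Ccl8, named here after their values were seen, were also high in ZT2 replicate 2 and ZT8 replicate 3. Ccl5, a T cell chemokine, read 1.80, 7.31 and 0.927 CPM at ZT2, 1.59, 1.57 and 6.38 at ZT8, 2.59, 2.05 and 1.12 at ZT14, and 1.87, 1.85 and 0.740 at ZT20. Ccl8, a monocyte chemokine, read 0.798, 1.67 and 0.376 CPM at ZT2, 0.352, 1.06 and 2.70 at ZT8, 1.36, 0.640 and 0.600 at ZT14, and 0.976, 1.96 and 0.166 at ZT20. In ZT20 replicate 2 Ccl8 was the second highest value, whereas Ccl5 stood at its middle level there. Cxcr3, the receptor of Cxcl9 and Cxcl10 on activated T cells, averaged 0.321 CPM and was highest in ZT2 replicate 2 (0.595 CPM) and ZT8 replicate 3 (0.563 CPM). Ccl22 was highest in those libraries too (0.794 and 0.769 CPM), as was Ccl19 (0.945 and 0.950 CPM). Few reads lie behind some of these values: about 2 to 28 read pairs a library for Ccl8, 3 to 20 for Cxcr3, 3 to 21 for Ccl22 and 3 to 15 for Ccl19. Part of their spread can be counting error.

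The SD of log2 CPM within a time was 1.71 for Cxcl9, 1.28 for Ccl8, 1.07 for Ccl5 and 0.66 for Cxcl10. Over the 10 members between 5 and 50 CPM its median was 0.194, against 0.0949 over the 8391 tested genes of those levels, and over the 20 members between 1 and 5 CPM it was 0.330 against 0.212 over 4391 genes. Of the 45 members at 0.2 CPM or more, 7 had their highest value in ZT2 replicate 2, 12 in ZT8 replicate 3 and 11 in ZT14 replicate 1, 7 of these last being Ccl19, Ccl21 and Ccl27 copies. The same count over all genes was not made, so these numbers cannot be read as particular to the members.

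Markers of immune cells were high in some of these libraries and not in others. The 8 markers of T and B cells, 7 of them above 0 in all 12 libraries, summed to 6.52 to 8.94 CPM in ZT2 libraries, 4.68 to 9.05 in ZT8, 6.55 to 8.89 in ZT14 and 5.49 to 7.99 in ZT20 libraries. Their highest sums were those of ZT8 replicate 3 (9.05 CPM), ZT2 replicate 2 (8.94) and ZT14 replicate 1 (8.89), and Cd3d was the marker at 0 in some libraries. The 10 markers of macrophages, all above 0 in every library, summed to 75.3 to 112.0 CPM in ZT2 libraries, 75.5 to 120.9 in ZT8, 85.3 to 106.9 in ZT14 and 85.3 to 99.7 in ZT20 libraries, again highest in ZT8 replicate 3 and ZT2 replicate 2. In ZT20 replicate 2, the other library high in Cxcl9, Cxcl10 and Ccl8, the T and B cell sum was 5.49 CPM, the third lowest of all, the macrophage sum was 98.6 CPM, inside the range of the rest, and the neutrophil sum of 25.4 CPM was the lowest of the 12. The neutrophil sums of ZT2 replicate 2 (103.2 CPM) and ZT8 replicate 3 (83.4 CPM) lay inside the range of the other libraries. ZT2 replicate 2, ZT8 replicate 3 and ZT14 replicate 1 were also among the 4 libraries richest in muscle RNA, whereas ZT20 replicate 2 had the lowest muscle sum of all. The part of these cells in the chemokine values was not tested.

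**Figure D3:**
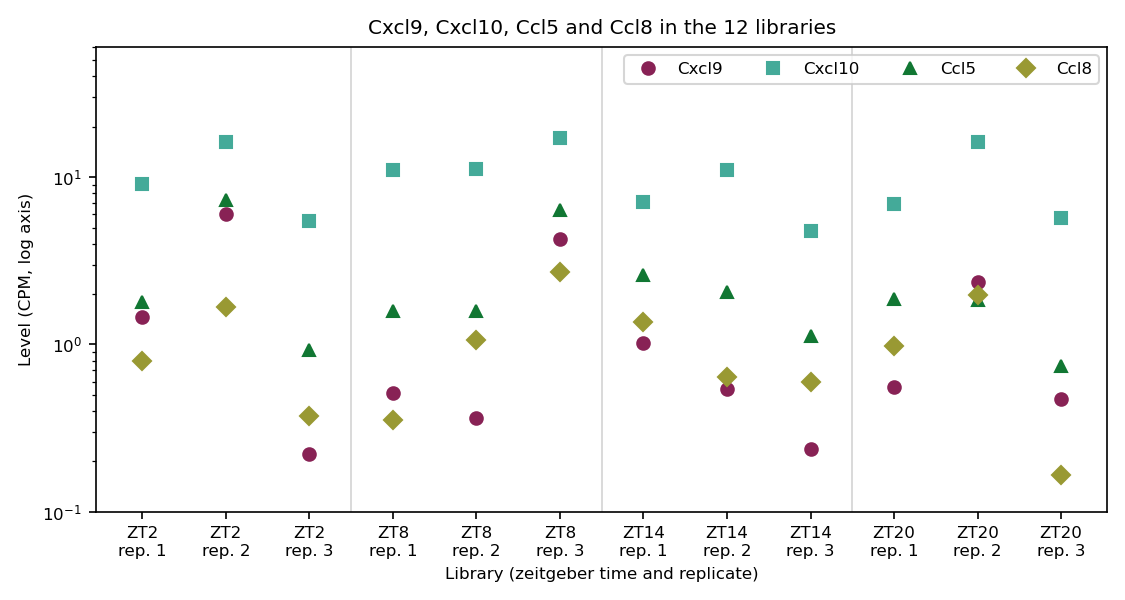
Level of Cxcl9, Cxcl10, Ccl5 and Ccl8 (CPM, log axis) in each of the 12 libraries, grouped by zeitgeber time. ZT2 replicate 2 and ZT8 replicate 3 are high in all 4 genes, ZT20 replicate 2 in Cxcl9, Cxcl10 and Ccl8, and Cxcl9 spans 0.221 to 5.99 CPM.

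Neutrophil-attracting CXC ligands were scarce: of Cxcl1, Cxcl2, Cxcl3, Cxcl5 and Cxcl15, which bind Cxcr2, 1 passed 0.2 CPM. That gene, Cxcl1, read 0.423, 0.555 and 0.422 CPM at ZT2, 0.579, 0.290 and 0.361 at ZT8, 0.278, 0.368 and 0.465 at ZT14, and 0.151, 0.237 and 0.287 at ZT20. The ZT20 values lay under those of ZT2 and ZT8, and 1 of them reached the range of ZT14. The contrast of ZT2 against ZT20 was 1.04 ± 0.36 (log2, SE), at an unadjusted p of 0.0139 and an adjusted p of 0.682 in edgeR, on about 4 to 17 read pairs a library.

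Cxcr2, the receptor by which neutrophils follow these ligands, was the member with the largest difference between times. It read 0.479, 0.218 and 0.107 CPM at ZT2, 0.242, 0.321 and 0.176 at ZT8, 0.147, 0.267 and 0.325 at ZT14, and 0.0494, 0.0236 and 0.0669 at ZT20. All 3 ZT20 libraries lay under the other 9, whose groups overlapped. ZT20 against ZT8 was -2.34 (log2, SE 0.64, 95% interval -3.74 to -0.94), at an unadjusted p of 0.0036 and an adjusted p of 0.729 in edgeR, and ZT2 against ZT20 was 2.45 (SE 0.64, adjusted p 0.562 in edgeR). The difference did not pass the test over all genes, and it rests on about 1 to 4 read pairs a library at ZT20 against 6 to 23 at the other times. Its 24-h amplitude was 1.17 ± 0.31 with a fitted peak at 7.8 h (unadjusted p 0.012, adjusted p 0.775 in edgeR). The libraries of ZT2, ZT8 and ZT14 overlapped, so no time among them stood out as the peak.

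Neutrophil RNA moved with Cxcr2. The 8 granule and neutrophil markers, all above 0 in every library and Cxcr2 not among them, summed to 25.4 to 44.1 CPM at ZT20, whereas ZT2 libraries held 64.1 to 148.9, ZT8 libraries 67.7 to 92.2 and ZT14 libraries 73.5 to 108.6. The 7 erythroid markers were lowest at ZT20 too, with sums of 781 to 1232 CPM whereas the other 9 libraries held 1665 to 4040 CPM. In the any-time test of edgeR, 0 of 8 neutrophil markers and 1 of 7 erythroid markers (Alas2, of haem synthesis) passed. Over the 12 libraries, log2 CPM of Cxcr2 followed the mean log2 CPM of the neutrophil markers with a Pearson r of 0.93 (two-sided permutation p 5e-05, 0.0003 after adjustment over 6 relations) and a Spearman rho of 0.81 (p 0.00235, adjusted 0.00768). Without the 2 libraries farthest from the median score, ZT20 replicates 2 and 3, r was 0.86. On deviations from the mean of each time r was 0.81 (permutation p 0.00149, adjusted 0.00447), but rho was 0.68 and missed the threshold after adjustment (permutation p 0.0186, adjusted 0.0557). That r was 0.56 without ZT2 replicates 1 and 3, the farthest libraries there. Deviations cancel out within a time, yet the permutations moved them freely between times, so these p-values may be too small. Over the 9 libraries of ZT2, ZT8 and ZT14 alone, chosen after seeing the data, r and rho both missed the adjusted threshold, with r of 0.76 (permutation p 0.0191, adjusted 0.0574) and rho of 0.57 (permutation p 0.12, adjusted 0.361). Whether blood left in the ganglia or cells in the tissue carried this RNA was not tested.

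**Figure D4:**
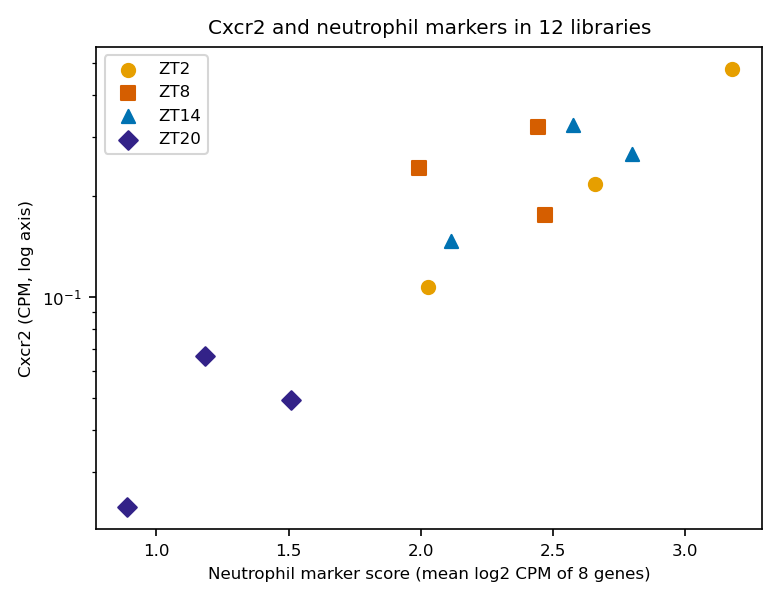
Level of Cxcr2 (CPM, log axis) against the neutrophil score (mean log2 CPM of 8 marker genes) in the 12 libraries, coloured by zeitgeber time. The 3 ZT20 libraries lie lowest on both axes, and r is 0.93 over all 12 and 0.76 over the other 9.

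The remaining receptors were low. Ccr10, Ccr2 and Ccr1 were among the CC receptors that passed 0.2 CPM. Ccr1, a receptor of Ccl3, Ccl5, Ccl6 and Ccl9 on myeloid cells, averaged 0.357 CPM (0.220 to 0.647) and gave -0.82 ± 0.35 (log2, SE) for ZT20 against ZT14, at an unadjusted p of 0.0389 and an adjusted p of 0.766 in edgeR, and -0.42 without ZT14 replicate 2. Log2 CPM of Ccr2 followed the macrophage score over the 12 libraries with r of 0.78 (two-sided permutation p 0.00281, adjusted 0.00843 over the 6 relations) and rho of 0.80 (p 0.00256, adjusted 0.00768). Without ZT2 replicate 3 and ZT8 replicate 1, the libraries farthest from the median score, r was 0.81, and on within-time deviations it was 0.82 (permutation p 0.00101, adjusted 0.00447). The rho on deviations was 0.84 (permutation p 0.00116, adjusted 0.00696). As for Cxcr2, the p-values on deviations may be too small. Without ZT8 replicate 3, the r of Ccr2 fell short of the threshold after adjustment (r 0.69, permutation p 0.0214, adjusted 0.0642). The rho there passed it (0.75, permutation p 0.0117, adjusted 0.035). Without the 4 libraries richest in muscle, r was 0.64 (permutation p 0.0829, adjusted 0.223) and rho 0.60 (permutation p 0.133, adjusted 0.348). Both missed the threshold. With ZT14 replicate 2 and ZT2 replicate 1 left out as well as those 4, r was -0.12.

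All 4 atypical receptors passed 0.2 CPM, and together they averaged 13.1 CPM. Ackr1, which carries chemokines on venule walls and red cells, read 3.30, 6.64 and 6.55 CPM at ZT2, 7.10, 9.80 and 7.11 at ZT8, 10.3, 10.1 and 4.02 at ZT14, and 6.45, 7.86 and 6.53 at ZT20. The ZT8 values lay above those of ZT2, whereas ZT14 held both the highest values and the next to lowest. Ackr1 shares 361 of its 1405 exon bases (25.7%) with Cadm3, an adhesion gene on the same strand, so reads of that stretch cannot be told apart. Over the 12 libraries its r with the endothelial score was 0.02 and with the erythroid score -0.11 (two-sided permutation p 0.94 and 0.738, both 0.94 after adjustment), and the rho values were 0.13 and 0.17 (permutation p 0.7 and 0.604, adjusted 0.7). Without the 2 farthest libraries these r were -0.25 and -0.09, and on within-time deviations 0.01 and -0.23. Ackr4, which clears Ccl19, Ccl21 and Ccl25, averaged 0.343 CPM, and Ackr2, which clears inflammatory CC ligands, 0.223 CPM. Cxcl12 gave r of 0.05 with the fibroblast score and Cx3cl1 0.06 with the neuronal score (two-sided permutation p 0.874 and 0.844, adjusted 0.94), with rho of 0.27 and 0.13 (permutation p 0.39 and 0.679, adjusted 0.7). Without the 2 farthest libraries they were 0.30 and -0.11, and on within-time deviations 0.31 and -0.30.

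No member passed a test for the time of day. Of the 64 gene IDs, 51 passed the filter on low values and were tested, among them 6 under 0.2 CPM. A gene can pass that filter through the time at which it is highest. The filter used the deposited values, which are not read numbers, and 40 members passed it on approximate read pairs. In the test for any difference between the 4 times, 0 of 51 passed an adjusted p of 0.05 in the quasi-likelihood test of edgeR, where 0.0504% of all 25809 genes tested did. At an unadjusted p under 0.05 there was 1 member (Cxcr2), or 1.96%, against a background of 6.19%, and limma-trend and DESeq2 also gave 0 calls and 1 member each. The 24-h test gave 0 calls against 0.0659% of all genes, and 2 members (Cxcr2 and Cx3cl1) at an unadjusted p under 0.05 against 5.2%, where limma-trend and DESeq2 gave 0 calls with 2 and 3 members. The median 24-h amplitude of the 51 members was 0.190 on the log2 scale and that of all genes tested was 0.0959, while among the 10 members at 5 CPM or more amplitudes ran from 0.05 to 0.31. Leaving out 1 library moved 7 of these 10 amplitudes by more than 1.5 times, as for Cxcl10 to 0.57 without ZT20 replicate 2, for Cxcl16 to 0.04 without ZT2 replicate 2 and for Ackr1 to 0.18 without ZT2 replicate 1. Amplitudes grow with the spread between libraries, so the median says nothing of rhythm.

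For the opposite times ZT14 against ZT2, 0 of 51 passed (0.0465% of all genes did), 0 had an unadjusted p under 0.05 in edgeR (5.19% of all did), and limma-trend and DESeq2 made 0 calls with 2 and 0 at an unadjusted p under 0.05. Without overlap between these groups in CPM, 1 member was higher at ZT14 (Cxcl17) and 1 lower (the Ccl27 copy on JH584294.1), where 5.77% and 5.4% of all genes were. Both rest on few reads. Cxcl17 had about 0, 1 and 1 read pairs at ZT2 and 2, 2 and 1 at ZT14. The Ccl27 copy had about 8, 8 and 9 at ZT2 and 7, 8 and 7 at ZT14. The median log2 fold change of the members was 0.03, with 29 of 51 above 0, and that of all genes was 0.00 with 49.9% above 0. For ZT20 against ZT8, 0 passed (0.0232% of all), and 5 members had an unadjusted p under 0.05 (9.8%, against 5.28% of all genes), lower at ZT20 for Cxcr2, Ccl11, Cxcl1 and Cxcl13 and higher for Cx3cl1. limma-trend and DESeq2 made 0 calls there, with 6 and 5 at an unadjusted p under 0.05. The members' median was -0.11 with 23 of 51 above 0, against 0.00 and 50.4% for all genes. Without overlap between ZT20 and ZT8, 3 members were lower (Cxcl13, Cxcr2 and Cxcl1) and 1 higher (Ackr2) at ZT20, where 4.54% and 5.31% of all genes were. Cxcl13 rests on about 1 to 7 read pairs a library and Ackr2 on 4 to 15.

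**Figure D5:**
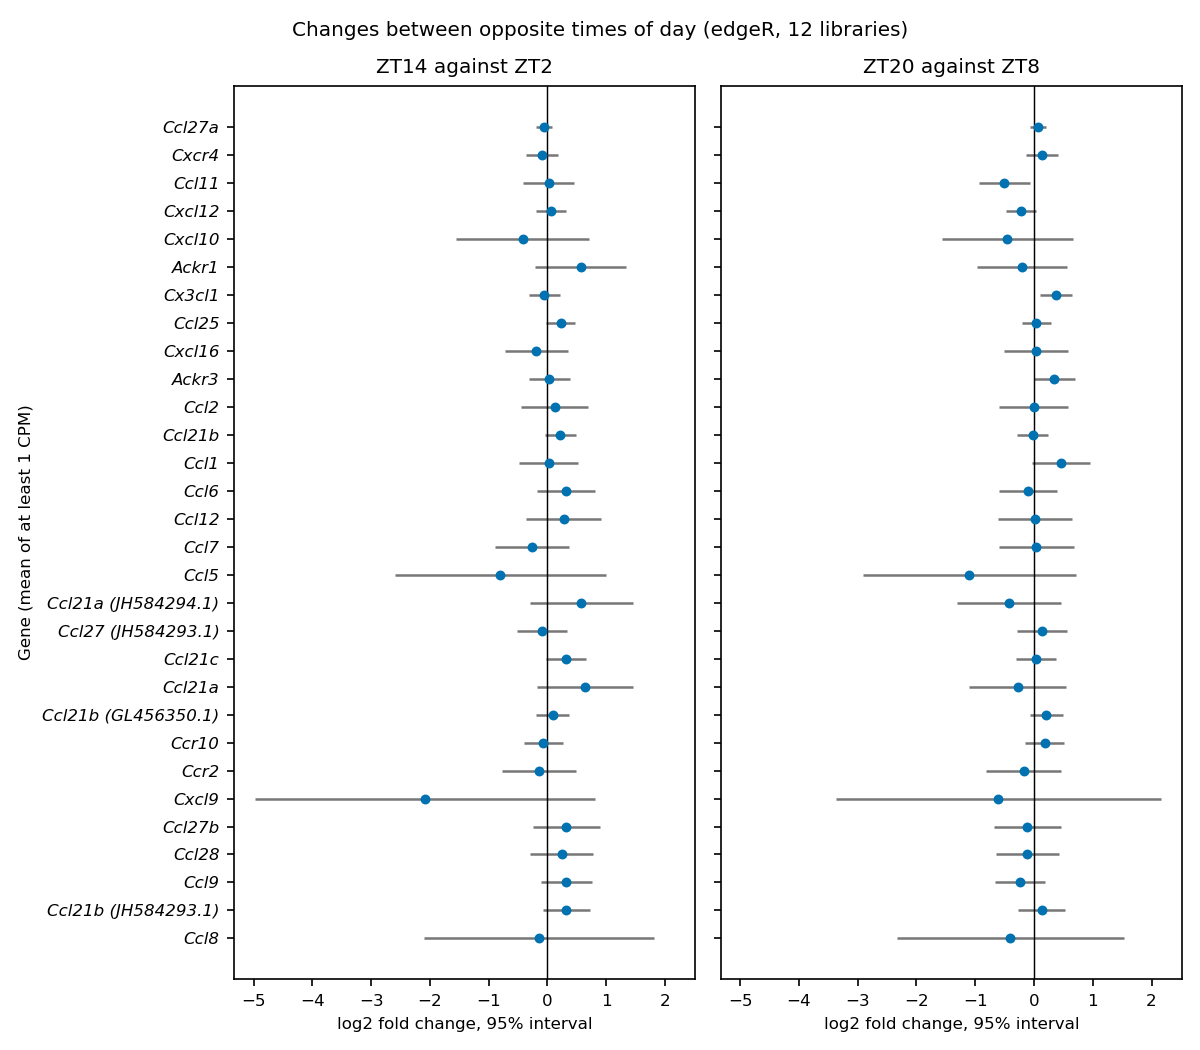
Log2 fold change with its 95% interval for the 30 genes with a mean of at least 1 CPM, at ZT14 against ZT2 and at ZT20 against ZT8 (edgeR, 12 libraries). Ccl27a and Cxcr4 have narrow intervals around 0, Cxcl9 the widest (-4.98 to 0.81 at ZT14 against ZT2), and none passed the adjusted test.

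Between neighbouring times, 0 of 51 members passed in each of the 4 contrasts in edgeR, limma-trend and DESeq2. In edgeR the share of all genes that passed was 0.0194% for ZT8 against ZT2, 0.0% for ZT14 against ZT8, 0.0426% for ZT20 against ZT14 and 0.00387% for ZT2 against ZT20. At an unadjusted p under 0.05 there were 1, 1, 4 and 2 members in edgeR, 1, 2, 6 and 4 in limma-trend and 1, 2, 6 and 3 in DESeq2, where 5.78%, 6.3%, 6.28% and 7.05% of all genes passed in edgeR. Those of edgeR were the Ccl27 copy on JH584294.1, then Ackr3, then Cxcr2, Ccl9, Ccr1 and Cxcl14, and last Cxcr2 and Cxcl1. Without overlap, ZT8 against ZT2 had 4 members higher (Ackr1, Cxcl12, Ccl21c and Ccl21b, where 6.09% of all genes were) and 2 lower (Ccl2 and the Ccl27 copy, 5.56%). ZT14 against ZT8 had 2 higher (Ccl2 and Ackr3, 5.62%) and 0 lower (5.68%). ZT20 against ZT14 had 0 higher (5.75%) and 6 lower (5.6%), namely Ccl6, Ccl9, Cxcl14, Ccr1, Cxcr2 and Cxcl5, and ZT2 against ZT20 had 6 higher (7.21%) and 4 lower (Ccl24, Ccl25, Cx3cl1 and Cxcl17, 7.53%). Several of these separations rest on few reads: Cxcl5 had about 1 to 9 read pairs a library, Cxcl17 0 to 3 and the Ccl27 copy 6 to 9. The precision differed widely among the better expressed members. The 95% interval of ZT14 against ZT2 ran from -0.19 to 0.08 for Ccl27a, from -0.36 to 0.19 for Cxcr4 and from -0.20 to 0.31 for Cxcl12, but from -1.55 to 0.70 for Cxcl10. A rise or fall of 1 on the log2 scale lay outside the first 3 of these intervals, whereas for Cxcl10 a fall of 1 lay inside and a rise of 1 outside.

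The wider chemokine system gave no calls. Of 19 other genes of that system, among them Cx3cr1, Xcl1, Pf4, Ppbp, Mif and Cd74, in edgeR 0 of 19 passed for any time or for a 24-h wave, and Ppbp and Cmklr1 had an unadjusted p under 0.05 in both, or 2 of 19 where 6.19% and 5.2% of all genes did. For ZT20 against ZT14 there were 4 of 19 (Ppbp, Cmklr1, Ccrl2 and Gpr182) at an unadjusted p under 0.05 in edgeR, against 6.28% of all genes, and 0 to 2 in each of the other 5 contrasts. Ppbp, a platelet chemokine that binds Cxcr2, had a mean of 0.595 CPM at ZT20 against 2.40 for ZT2, 2.38 for ZT8 and 1.55 for ZT14 (adjusted p 0.756 in edgeR). Cmklr1, the chemerin receptor, averaged 2.11 CPM at ZT14 against 1.10 at ZT2, 1.10 at ZT8 and 1.18 at ZT20 (adjusted p 0.318 in edgeR). Of 32 genes of signalling below the receptors, from the inhibitory G proteins to kinases and Rac, 31 were tested and 0 passed either test, and 0 had an unadjusted p under 0.05 in either, while Gnai1 and Gnai3 had one for ZT20 against ZT14 and Gnai1 for ZT2 against ZT20. Gnai2, the main G protein subunit of leukocyte chemokine receptors, averaged 387.2 CPM (357.8 to 413.1). As a reference for the time of day, 7 of 15 clock genes passed the any-time test and 8 of 15 the 24-h test in the same fit. Per2, a repressor of the clock, had a mean of 8.30 CPM at ZT14 against 4.50 for ZT2, 5.47 for ZT8 and 3.80 for ZT20 (adjusted p 0.0137 in edgeR), and Arntl, its activator, means of 6.24 CPM for ZT2, 2.83 for ZT8, 2.63 for ZT14 and 6.39 for ZT20.

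By position, the 57 symbols on chromosomes fell largely into clusters with unequal levels. On chromosome 5, between 90759360 and 90905938, Cxcl5, Cxcl3, Cxcl15, Cxcl1 and Cxcl2 lie together, and 1 of 5 passed. On chromosome 4, between 41769467 and 42773993, all 5 of Ccl27a, Ccl21b, Ccl27b, Ccl19 and Ccl21a passed, with means from 0.551 to 35.8 CPM. Of all members, 8 share exon bases with another gene: beside Ackr1 these were Cxcl16 with Zmynd15 (18.3% of its exon bases), Ackr4 with Acad11 (8.9%), Cxcl10 with Art3 (5.91%), Ccl25 with Elavl1 (2.74%), Ccl27a with Il11ra1 (0.337%), Ccr9 and Cxcr5. The partners of these last members lie mostly on the opposite strand, and no source used here says whether the kit keeps the strand, so such reads may not be told apart.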

How the data were processed

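Polyadenylated RNA of lumbar ganglia was sequenced in 12 libraries, 3 at each of ZT2, ZT8, ZT14 and ZT20. The authors deposited estimated counts per gene, not whole numbers, that follow coverage per base. The submitters' processing notes name the aligner HISAT2 2.2.1, the assembler StringTie 2.1.5 and the build GRCm38.p6; the annotation and the step that wrote the table are not given in these sources. Of 38594 Ensembl rows, 38462 matched GENCODE M21; 348 assembled loci (0.203% to 0.231% of a library) were left out. The library totals (89623413 to 124730176) are not read numbers, so counting error is not modelled exactly.

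Values were rounded and tested with edgeR 4.0.16 in R 4.3.3 (filterByExpr, TMM, robust quasi-likelihood F tests, 1 model of the 4 times, Benjamini-Hochberg over 25809 genes, threshold 0.05) for any difference between times, a 24-h cosine and 6 contrasts. CPM are scaled by TMM library size. Marker scores are means of log2 CPM with a prior count of 2. Alternatives were DESeq2 1.42.0, limma-trend 3.58.1, other scalings and filters, approximate read pairs, and leaving out libraries. For approximate read pairs, each value was first divided by the most frequent value above 10 of its library (16.4 to 17.24). That value was taken as a coverage of 1, which was not tested. The result was multiplied by the median transcript length and divided by 300 bases a pair. Python 3.11.15 with pandas 2.3.3 made the tables. The tests were tried on simulated data. For edgeR these had the same spread setting for every gene and changes in genes above 1 CPM only. That check does not cover members of lower level or wider spread. The intervals cover the spread between libraries only.

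The members, lists and relations were chosen with earlier results of these data known. Members with a mean of at least 0.2 CPM are named, except 1 that is not reported here. Library values are given for the 12 highest, for members with an unadjusted p under 0.05 in the any-time or 24-h test, and for Cxcl12, Cxcr4, Ackr3, Ccl2, Ccr2 and Cxcr2; those of Cxcl9, Ccl5, Ccl8 and Cxcl1 were added after their values were seen. Samples of the same replicate number did not deviate together (correlations of -0.06 to 0.08), so the numbers were not taken as pairs.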

Additional observations from a re-analysis of the deposited data

How the results depend on the processing

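The count of members past each of the 8 tests was 0 in all 182 values over 23 alternative settings, and the lowest adjusted p of any member was 0.0946 (DESeq2, ZT2 against ZT20). With the replicate number as a block the counts were 0 as well, so no call of a member changed. The calls of clock and marker genes under the block are not given here. Leaving out each library in turn gave 0 to 0. No single-gene value passed the threshold under an alternative (0 of 1280). The 13 fold changes, taken for an unadjusted p under 0.05, kept their sign in 296 of 296 values, and leaving out 1 library moved 4 of them by over 1.5 times (Ccl11, Ackr3 and Ccr1 as given above, and Cxcl1 to -0.52 for ZT20 against ZT8 without ZT8 replicate 1). Amplitudes have no sign, and leaving out 1 library moved 29 of 45 by over 1.5 times; at 5 CPM or more they then ran from 0.03 to 0.57. The number of members at 0.2 CPM or more was 45 with DESeq2 size factors and 44 with approximate read pairs. The relations with marker scores depended more on the libraries. That of Cxcr2 missed the adjusted threshold without the 3 ZT20 libraries (r 0.76, added after seeing the data) and by rho on within-time deviations (0.68). That of Ccr2 missed it without the 4 libraries richest in muscle (r 0.64). Without ZT8 replicate 3 it missed by r (0.69) but not by rho (0.75). Without the muscle-rich libraries r was -0.61 for Cxcl12 and -0.34 for Ackr1 with endothelium. For Cx3cl1 it was -0.30 on within-time deviations and -0.15 without the ZT20 libraries. Leaving out each library in turn, r ran from 0.89 to 0.96 for Cxcr2, 0.69 to 0.84 for Ccr2, -0.10 to 0.18 for Cxcl12, -0.25 to 0.19 for Ackr1 with endothelium, -0.28 to 0.13 for Ackr1 with erythroid markers and -0.034 to 0.37 for Cx3cl1; the cause was not tested. Several members rest on few approximate read pairs a library, among them Ccl17 (0 to 10), Cxcl1 (4 to 17) and Ccl27b (7 to 17), and the smallest difference detectable at such depths was not measured.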
